A study of Mus musculus with 11 samples.

Results

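Bcl2 family and p53 genes were followed through PU.1 ChIP-Seq of 2 kinds of immature mouse erythroid cells. They are 10 of 22359 protein-coding genes, chosen by name: Bcl2, Bcl2l1, Mcl1, Bcl2l11, Bid, Bax, Bak1, Trp53, Mdm2 and Mdm4. Each gene with 10 kb on each side was cut into 500 bp windows, which gives 1188 of the 2518297 windows of all protein-coding gene regions. MEL cells are a murine erythroleukemia line, here a single clone (labelled 4) that carries a stable transgene of Gata-1 joined to ER and was grown with puromycin. ES-EP are erythroid progenitors derived from embryonic stem cells that proliferate with Epo, IGF-1, SCF and dexamethasone. Chromatin was prepared independently 2 times per cell type (preparations A and B), precipitated with a PU.1 antibody (T-21) and sequenced as 2 libraries per preparation, whose reads were summed. Thus n = 2 preparations per cell type, beside 1 input library of MEL cells and 2 of ES-EP.

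The proteins of the Bcl2 family decide whether mitochondria release the factors that start cell death. Bcl2, Bcl2l1 and Mcl1 hold death back, Bcl2l11 and Bid carry the death signal, and Bax and Bak1 form the pores in the outer membrane. Bcl2l1, whose long product is Bcl-xL, is known for keeping erythroid cells alive as they mature. The transcription factor p53, the product of Trp53, induces several of the death-promoting genes, and Mdm2 and Mdm4 hold it in check. PU.1 is an Ets family factor whose DNA words contain the core GGAA, and in mice its overexpression blocks erythroid maturation.

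The libraries hold between 2054667 and 5051235 reads on assembled chromosomes. The share of reads within 500 bp of a TSS was 3.46 to 6.60% in the MEL ChIP libraries and 3.92 to 9.10% in those of ES-EP. The MEL input had 2.18% there, and the ES-EP inputs had 3.85 and 5.09%. The Gata1 exons held 3.58 times as many MEL input reads per kb as its introns, against 0.384 times in ES-EP, the latter from 2 exon reads and 35 intron reads. In the ChIP reads these ratios were 3.10 and 2.22. The part of the transgene in these ratios was not tested. Expression data of these cells were not analysed here, so cell type markers were not checked. At the locus of PU.1 itself, Sfpi1, 1 window was enriched in both cell types, while none was at Hbb-b1 or Myog, though 3 windows of Myog passed in MEL preparation B alone.

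PU.1 was found above input at 8 of the 10 genes. A window was called enriched where its reads exceeded the depth-scaled input (adjusted p below 0.05, one-sided exact Poisson test) in preparation A and again in preparation B. MEL cells had 10 enriched member windows, and ES-EP also had 10, against 0.239% and 0.167% of all windows. They are 15 different windows, of which 5 passed in both cell types, 5 in MEL cells alone and 5 in ES-EP alone. Among all 2518297 windows 7887 passed in either cell type, and 2328 of these were shared by both. At least 1 enriched window lies in 32.8% of all gene regions. Mdm2 and Mdm4 had none. With the window grid moved by 250 bp 7 members had one, Bax having lost its window. With the 5′ ends left where they were 7 had one as well, without Bcl2l11 and Bax and with Mdm2, which then had 1 window in ES-EP. In preparation B of the MEL cells alone 23 member windows passed, against 11 in preparation A, and in ES-EP 16 passed in preparation A and 11 in preparation B. Of all 2518297 windows 19728 and 7740 passed in MEL preparations B and A, and 13543 and 5080 in ES-EP preparations A and B. The gap between preparations is thus not particular to the members. Levels are given as RPM, the reads-per-million scale that divides the reads of a window by the reads of the library or preparation. The Poisson test covers counting error within a preparation, so a window had to pass in both preparations. Both were set against the same input of their cell type, which their agreement does not check.

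**Figure D1:**
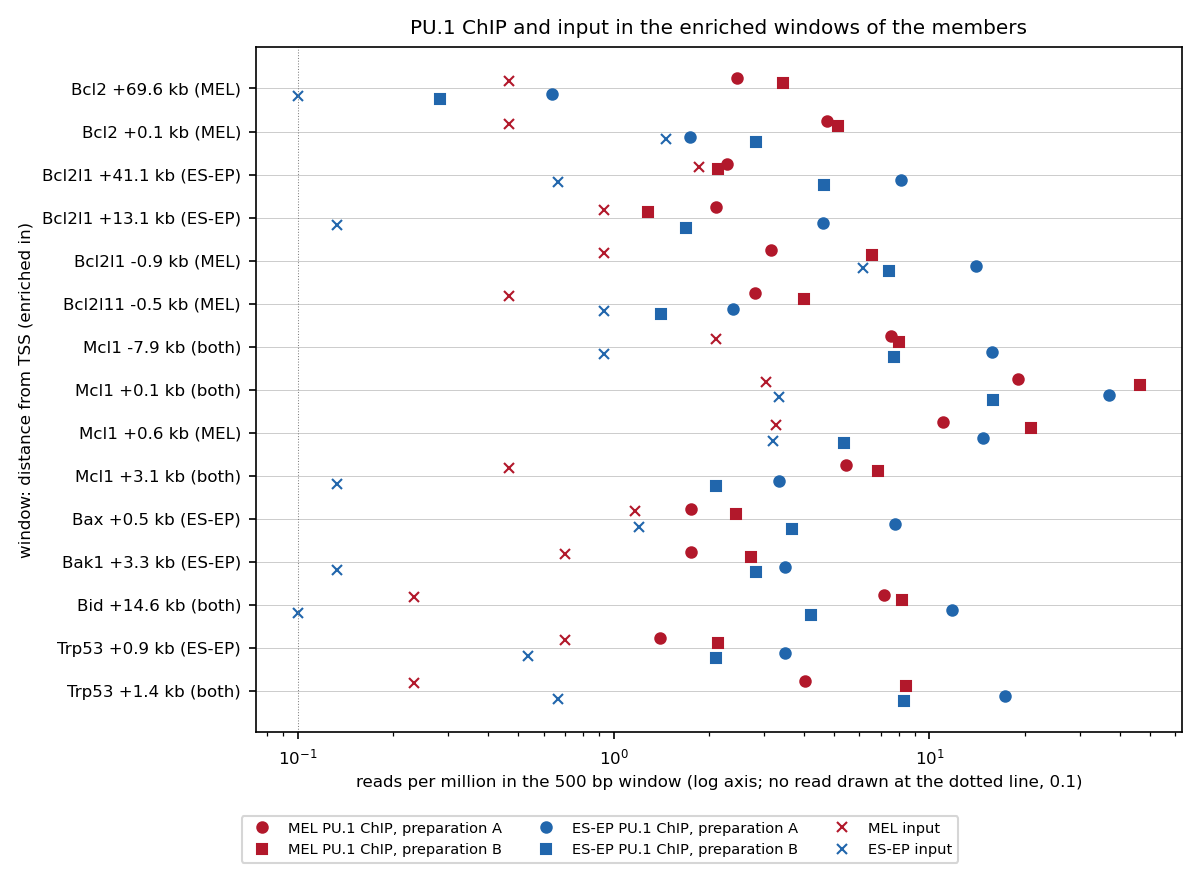
RPM in the 15 enriched windows of the members (log axis), 1 point per ChIP preparation and 1 cross per cell type for input; labels give the distance from the TSS in kb and the cell type in which the window was enriched, and a window without a read is drawn at the dotted line. The Mcl1 window at 0.1 kb reached 46.4 RPM in MEL preparation B, and the Bcl2 window at 69.6 kb has the widest gap between the cell types.

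Words of 8 bases that contain the Ets core were looked for in the enriched windows, on both strands: GAGGAAGT, as PU.1 prefers, and CCGGAAGT, as many other Ets factors prefer. Both words end in GGAAGT and neither contains the other. GAGGAAGT stands in 75434 of all 2518297 windows, and in 25.8% of the enriched windows of MEL cells and 30.4% of the enriched windows of ES-EP. CCGGAAGT stands in 0.392% of all windows and in 4.41% and 5.49% of the enriched ones. Among the 15 member windows 4 held GAGGAAGT and 2 held CCGGAAGT. The sequences with a word within 100 bp of the position with most ChIP reads are shown because they place the letters next to the reads. All were read from the genome NCBIM37 (mm9), minus strand, with the words in capitals.

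Bid, intron 1, chr6:120852117-120852316: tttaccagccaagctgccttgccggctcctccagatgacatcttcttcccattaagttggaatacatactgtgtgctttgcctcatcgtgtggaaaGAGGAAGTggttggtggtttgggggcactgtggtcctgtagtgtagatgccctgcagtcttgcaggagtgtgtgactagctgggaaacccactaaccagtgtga
Mcl1, upstream, chr3:95454649-95454848: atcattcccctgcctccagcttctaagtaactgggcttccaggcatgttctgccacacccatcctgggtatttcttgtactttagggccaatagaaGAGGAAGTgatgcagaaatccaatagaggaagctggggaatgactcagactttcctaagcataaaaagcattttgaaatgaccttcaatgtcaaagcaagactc
Mcl1, untranslated part of exon 4, chr3:95465961-95465990: aagagcacaggGAGGAAGTgtagacgactc
Bak1, intron 2, chr17:27162405-27162520: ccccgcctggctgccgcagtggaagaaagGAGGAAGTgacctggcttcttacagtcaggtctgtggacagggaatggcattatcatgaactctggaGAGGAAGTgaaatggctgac
Bcl2l1, untranslated exon, chr2:152657412-152657441: ctgccgcggcaCCGGAAGTggctgcgcttg

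The word lay 5 bp from the position with most reads at Bid, 23 bp at the upstream Mcl1 window, 14 bp in exon 4 of Mcl1, 6 bp at Bak1 and 10 bp at Bcl2l1. Bak1 held GAGGAAGT 2 times in these 116 bases. Both Mcl1 windows and the stretch of Trp53 given further on are shown beyond the fixed rule and were chosen after their values were seen.

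Of the genes that hold death back, Mcl1 had the enriched window with the most PU.1 reads. Its gene lies at chr3:95462643-95467099 on the plus strand and is 4.46 kb long, and 4 of its windows were enriched in MEL cells and 3 of these in ES-EP. The ES-EP call at 3.1 kb had an adjusted p of 0.0418 in preparation B (exact Poisson test) and was lost at a threshold of 0.01, and with at most 1 read per position or with the 5′ ends left where they were ES-EP also had 2 Mcl1 windows. The window over the TSS and the untranslated start of exon 1 (chr3:95462501-95463000) held 109 reads in preparation A of the MEL cells and 324 in preparation B, against 17.3 and 21.2 expected from input. ES-EP held 232 and 113 reads there, against 21.0 and 23.7 expected. MEL cells had 19.1 and 46.4 RPM, ES-EP had 36.9 and 15.9, and the inputs had 3.04 and 3.34. The preparations of the 2 cell types overlapped, and the spread between preparations of one cell type was larger than the difference between cell types (log2 MEL minus ES-EP 0.28 ± 0.78 SE, limma adjusted p = 0.905).

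The other Mcl1 windows lie on both sides of the TSS. At -7.9 kb (chr3:95454501-95455000) MEL cells had 7.55 and 8.01 RPM and ES-EP 15.8 and 7.75, over inputs of 2.10 and 0.935. The expected reads were exceeded 3.59 to 3.81 times in MEL cells and 16.9 and 8.29 times in ES-EP. This is the window with the upstream sequence printed above. At 3.1 kb, in the last exon, MEL cells had 5.44 and 6.87 RPM and ES-EP 3.34 and 2.11, so that both MEL preparations lay above both of ES-EP (log2 difference 1.17 ± 0.65 SE, adjusted p = 0.821). With depth scaled by the median ratio this difference passed (1.37, adjusted p = 0.045). The ratio of 2.31 between the cell types in this window became 1.12 when divided by the input ratio over the region, 2.07, and ChIP reads outside the enriched windows of the region gave 2.19. The window at 0.6 kb, next to that of the TSS, passed in MEL cells in both preparations and in ES-EP in preparation A alone, with 11.1 and 21.0 RPM for the MEL preparations against 14.8 and 5.36 for ES-EP.

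At Bcl2 (chr1:108434755-108610851, minus strand) 2 windows were enriched, both in MEL cells alone. The window of the TSS (chr1:108610501-108611000) had 27 and 36 reads in the MEL preparations against 11 and 20 for ES-EP, or 4.74 and 5.15 against 1.75 and 2.82 RPM. The second lies in intron 1, 69.6 kb downstream (chr1:108541001-108541500), with 14 and 24 reads in the MEL preparations and 4 and 2 in those of ES-EP. MEL cells lay above ES-EP in both windows without overlap, which the choice of windows called in MEL cells alone favours. The intronic window was 6.68-fold higher in MEL cells by depth-scaled reads, the only one of the 15 windows past the 5-fold limit that the study used, which 6.59% of all windows enriched in either cell type pass. Neither difference passed the test with limma and voom (log2 2.66 ± 1.31 SE, adjusted p = 0.811, and 1.13 ± 0.64 SE, adjusted p = 0.821). The intronic window did pass with limma on log2 of scaled reads (log2 1.86 ± 0.49 SE, adjusted p = 0.014). In limma with voom it passed with libraries in place of preparations (adjusted p = 0.0295) and with a minimum of 10 reads (adjusted p = 0.047). With no filter beyond 1 read it passed too (adjusted p = 0.0491). The fit on libraries takes 2 libraries of the same preparation as independent, which they are not. None of these fits corrects for input or for the choice of the window by its MEL call.

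The MEL input itself held more reads of Bcl2, scaled for depth, than that of ES-EP. Over the gene with 10 kb on each side 1097 input reads came from MEL cells and 669 from ES-EP, a depth-scaled ratio of 2.87 (exact 95% interval for counting error 2.60 to 3.16) at percentile 99.1 of 20930 gene regions. The ChIP libraries outside the enriched windows gave 2.83 (2.64 to 3.04), with 1.08 to 1.27 RPM per kb in the 4 MEL libraries and 0.398 to 0.433 in those of ES-EP. Divided by the ratio of the input over the region, the ChIP ratio of MEL cells to ES-EP was 2.33 in the intronic window and 0.747 at the TSS. Within the TSS window alone the input ran the other way, with 2 MEL reads (0.467 RPM) and 11 ES-EP reads (1.47 RPM). The direction at the TSS thus depends on whether the input of the region or of the window is used.

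Bcl2l1 (chr2:152593052-152657464, minus strand) had 3 enriched windows and none in both cell types. Both windows of ES-EP lie in intron 2. At 41.1 kb from the TSS (chr2:152615001-152615500) ES-EP had 51 and 33 reads and MEL cells 13 and 15, or 8.11 and 4.65 against 2.28 and 2.15 RPM. The groups did not overlap (log2 -1.44 ± 0.65 SE, limma adjusted p = 0.737), in a window picked by its call in ES-EP alone. At 13.1 kb (chr2:152643001-152643500) ES-EP had 29 and 12 reads and MEL cells 12 and 9, and ES-EP preparation B, at 1.69 RPM, lay below MEL preparation A, at 2.11. This call had an adjusted p of 0.0178 in ES-EP preparation B (exact Poisson test) and was lost at a threshold of 0.01.

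The Bcl2l1 window of MEL cells (chr2:152657001-152657500) lies at -0.9 kb from the TSS with most coding transcripts, with its centre 168 bp downstream of another TSS of the gene. It held 18 and 46 reads in MEL cells against 88 and 53 in ES-EP, so that ES-EP had the higher RPM (14.0 and 7.47) and MEL cells the lower (3.16 and 6.58). It was called in MEL cells alone. Of the 46 reads in MEL preparation B 38 came from library B2 and 8 from library B1. The ES-EP input held 46 reads there (6.14 RPM) and the MEL input 4 (0.935 RPM), so that 38.6 and 43.6 reads were expected for ES-EP and 5.33 and 6.53 for MEL cells. In ES-EP the reads were 2.28 and 1.22 times those expected, and preparation A alone passed. With the 5′ ends left where they were, the MEL call was lost too. The word CCGGAAGT printed above lies in this window.

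**Figure D2:**
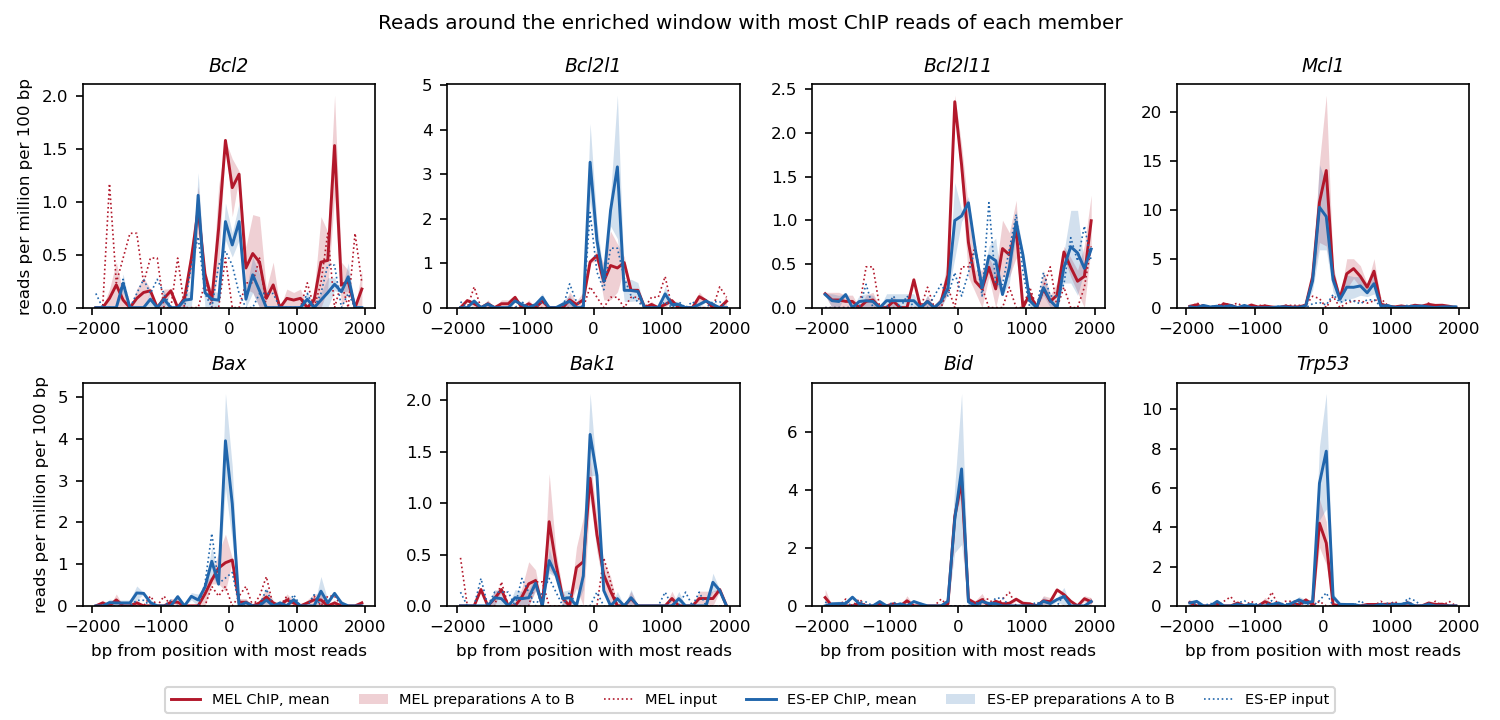
RPM in 100 bp bins within 2 kb of the position with most reads, for the enriched window with most ChIP reads of 8 members; lines are the mean of preparations A and B, shading spans both preparations and dotted lines are input. Bid and Trp53 show 1 narrow peak, up to 7.32 and 10.8 RPM per bin in ES-EP preparation A, and at Bcl2l1 the ES-EP input reaches 2.14 RPM in the bin next to the centre.

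Of the genes that carry the death signal, Bid showed the window with the lowest input. It lies in intron 1, 14.6 kb from the TSS (chr6:120852001-120852500; gene chr6:120841948-120866871, minus strand). The ChIP preparations of MEL cells held 41 and 57 reads and those of ES-EP 74 and 30. The MEL input held 1 read there and the ES-EP input 0 of 7488885 reads, which allows up to 3. MEL cells had 7.20 and 8.16 RPM and ES-EP 11.8 and 4.23, with both MEL values between those of ES-EP. The reads were 17.1 to 47.7 times those expected in the 4 preparations. The cell types did not differ beyond the preparations (log2 0.10 ± 0.70 SE, adjusted p = 0.964), an interval that leaves room for differences in either direction.

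Bcl2l11, which encodes Bim, had 1 enriched window, upstream of its TSS at -0.5 kb (chr2:127951001-127951500; gene chr2:127951774-127988283, plus strand). It passed in MEL cells, with 16 and 28 reads where 3.60 and 4.41 were expected, and not in ES-EP, with 15 and 10 reads where 7.80 and 8.81 were expected. Both MEL preparations (2.81 and 4.01 RPM) lay above both of ES-EP (2.39 and 1.41), in a window picked by its call in MEL cells alone. The difference did not pass the test (log2 0.84 ± 0.62 SE, adjusted p = 0.821), and no window of the gene passed with the 5′ ends left where they were.

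The pore-forming members were each called at 1 window, in ES-EP. For Bax the call was lost with the window grid moved by 250 bp and with the 5′ ends left where they were, and with the moved grid Bak1 had 1 window in MEL cells also. At Bax (chr7:52717065-52722268, minus strand) the window lies in intron 1, 0.5 kb from the TSS (chr7:52721501-52722000), with 49 and 26 reads in ES-EP and 10 and 17 in MEL cells. That is 7.80 and 3.66 RPM in ES-EP and 1.76 and 2.43 in MEL cells, without overlap in a window picked by its call in ES-EP alone. The log2 difference was -1.35 ± 0.64 SE (adjusted p = 0.792). The next window, over the TSS itself, passed in MEL preparation B alone.

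At Bak1 (chr17:27156755-27165954, minus strand) the window with the pair of GAGGAAGT words (chr17:27162001-27162500, intron 2) also lies inside the gene Ggnbp1. ES-EP had 22 and 20 reads, 10.9 and 8.79 times those expected. MEL cells had 10 and 19 reads, and preparation B passed (adjusted p = 0.000241, exact Poisson test) while preparation A did not (adjusted p = 0.889). ES-EP had 3.50 and 2.82 RPM and MEL cells 1.76 and 2.72, close together (log2 -0.51 ± 0.62 SE, limma adjusted p = 0.821). They did not overlap, in a window picked by its call in ES-EP alone. The call in one cell type and not in the other thus rests on preparation A of the MEL cells.

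Trp53 (chr11:69393861-69405375, plus strand) had its 2 enriched windows in intron 1. In ES-EP preparation A 3 windows of the region passed, against 2 in ES-EP preparation B. The window at 1.4 kb (chr11:69395001-69395500) held 23 and 59 reads in MEL cells, 8.64 and 18.1 times those expected. ES-EP held 109 and 59 reads, 26.0 and 12.5 times those expected. MEL cells had 4.04 and 8.44 RPM and ES-EP 17.3 and 8.31, so that MEL preparation B and ES-EP preparation B were nearly equal. The log2 difference was -1.05 ± 0.71 SE (adjusted p = 0.821). The neighbouring window at 0.9 kb passed in ES-EP, with 22 and 15 reads, and in MEL preparation B, and a TSS of Wrap53 lies within 1 kb of it. This neighbouring window held CCGGAAGT, 476 bp from its position with most reads. That position (chr11:69394991) lies at the border with the window at 1.4 kb, whose own is chr11:69395041, so both windows may hold the same peak. With the grid moved by 250 bp Trp53 had 1 window in ES-EP.

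The Trp53 window at 1.4 kb held neither GAGGAAGT nor CCGGAAGT. The 200 bases around its position with most reads are given on the plus strand, with each GGAA and its complement TTCC in capitals (4 in all), since this is the Trp53 window with most reads.

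Trp53, intron 1, chr11:69394942-69395141: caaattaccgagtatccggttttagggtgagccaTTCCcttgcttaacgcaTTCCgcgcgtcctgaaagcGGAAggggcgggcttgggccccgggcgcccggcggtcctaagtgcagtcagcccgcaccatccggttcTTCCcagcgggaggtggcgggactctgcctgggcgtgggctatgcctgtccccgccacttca

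Mdm2 (chr10:117125944-117147814, minus strand) and Mdm4 (chr1:134886422-134921943, minus strand) had no window that passed in both preparations. At Mdm2 2 windows next to the TSS passed in MEL preparation B alone. At Mdm4 no window passed in any preparation. Within 500 bp of the Mdm2 TSS MEL cells had 1.76 and 5.44 RPM and ES-EP 6.84 and 4.09, with input at 0.935 in MEL cells and 1.64 and 4.55 in the ES-EP libraries. At the Mdm4 TSS MEL cells had 1.93 and 1.43 RPM and ES-EP 2.55 and 2.82.

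The windows were compared between the cell types with limma (voom) over the 2 preparations of each. Of 53586 windows with at least 20 ChIP reads 70 differed, 0.131%. Of the 88 member windows among them 0 passed an adjusted p of 0.05, while 7 had an unadjusted p below 0.05 and limma on log2 of scaled reads called 2, both in Bcl2. Over all 53586 windows 3245 had an unadjusted p below 0.05, and limma on log2 of scaled reads called 965. By limma with voom the lowest adjusted p of a member window was 0.580. The log2 differences of the member windows ran from -1.61 to 3.86. Of these member windows 33 lie at Bcl2 and 14 at Mcl1, whose input ratios of MEL cells to ES-EP were 2.87 and 2.07. The comparison did not correct for input. The minimum of 20 reads is on the sum over both cell types, which windows with many reads in either cell type can reach alone. The Bcl2 and Mcl1 windows weigh on the member set, so its typical difference is not given. With no filter beyond 1 read 11 of 1177 member windows were called, 10 of them in Bcl2, where 1868 of all 2313924 windows were. The difference at 1 TSS per gene ran from -1.12 at Bax to 0.84 at Bcl2 over the 10 members, and 0% of the 22359 promoters passed (0 by limma with voom and 0 by limma on log2 of scaled reads, with 1358 and 1280 at an unadjusted p below 0.05).

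Within 500 bp of the TSS the ChIP reads were also set against input in one fit over ChIP preparations and input libraries (limma with voom), in which the single MEL input is assumed to vary like the other groups. In ES-EP Mcl1 was the 1 member of 10 above input (log2 2.46 ± 0.68 SE, adjusted p = 0.0208), where 2.05% of all promoters passed. It did not pass without ES-EP preparation A (log2 1.82, adjusted p = 0.426), and log2 was 3.10 without preparation B. Without ES-EP input library 1, without library 2 and on log2 of scaled reads Mcl1 stayed at log2 2.51, 2.43 and 2.38, but 0 of all 22359 promoters passed above input in these 3 fits (1318, 2188 and 2192 at an unadjusted p below 0.05). In MEL cells no member passed, where 1.59% of all promoters did, and Mcl1 came nearest (log2 2.68 ± 0.82 SE, adjusted p = 0.0545). It passed in 7 of 12 alternatives in MEL cells and in 8 of 12 in ES-EP. Bcl2 followed in MEL cells (log2 2.48 ± 0.84 SE, adjusted p = 0.0910). Its ChIP reads were 5.71 and 6.49 times the input in preparations A and B, against 1.37 and 1.58 times for ES-EP. The MEL input held only 5 reads at this TSS (1.17 RPM), while the ES-EP input held 20 (2.05 and 2.97 RPM per library). Without input, ChIP RPM at Bcl2 was 6.67 and 7.59 for the MEL preparations against 3.66 and 4.23 for ES-EP. The contrast of these ratios thus depends on the inputs as well as on the ChIP reads.

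The log2 ratio of ChIP to input was above 0 at 8 of 10 members in MEL cells and at 9 of 10 for ES-EP, where 66.0% and 61.8% of all promoters were above 0, with medians of 1.58 and 0.86 beside 0.53 and 0.25 over all promoters. These directions depend on the scaling and, in ES-EP, on the input library. Without ES-EP input library 1 the ES-EP median of the members was 0.28, with 8 of 10 above 0. Without library 2 it was 1.44, with 10 of 10 above 0. Of all promoters 56.2% and 61.0% were above 0 in these fits. With median-ratio depth 7 and 8 members were above 0, Bak1 in MEL cells and Mdm4 in ES-EP having turned, with medians of 0.73 and 0.28, while 38.0% and 39.1% of all promoters were above 0, with medians of -0.40 and -0.22. Bcl2l1 and Trp53 were the members below 0 in MEL cells (log2 -1.09 and -1.76), and in both the enriched windows lie outside the 500 bp around the TSS used here. When every TSS of the gene was counted, the log2 ratio in MEL cells was 1.23 for Bcl2l1 and -0.62 for Trp53, and in ES-EP it was 1.31 for Trp53, none past the threshold. The difference between the cell types of ChIP over input passed for 0% of promoters, with 1361 at an unadjusted p below 0.05 and 24 passing in the fit on log2 of scaled reads. Among the members it was largest at Bcl2l1 (-2.16 ± 1.18 SE, adjusted p = 0.844) and Bcl2 (1.90 ± 1.05 SE, adjusted p = 0.848). The value of Bcl2l1 rests on 10 ChIP reads over 7 input reads for MEL cells and 12 over 4 for ES-EP, and turned to 0.66 with every TSS. That of Bcl2 rests on 91 ChIP reads over 5 input reads for MEL cells and 53 over 20 for ES-EP.

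The 43 other genes of these pathways were counted the same way. An enriched window lay in 16 of them (37.2%, against 32.8% of all genes): 15 had one in MEL cells (34.9%, against 26.7%) and 7 had one in ES-EP (16.3%, against 20.4%). These were 2 of 14 other Bcl2 family genes, 6 of 8 genes of the apoptosome and caspases and 8 of 21 p53 regulators and targets. At the promoter Casp8, the initiator caspase of death receptors, passed in both cell types, with 9.76 and 10.3 times the input in MEL cells (log2 3.22 ± 0.83 SE, adjusted p = 0.018) and 10.3 and 4.75 times in ES-EP (log2 2.73 ± 0.68 SE, adjusted p = 0.0064). Xiap, an inhibitor of caspases, passed in MEL cells (adjusted p = 0.0159), with 41 ChIP reads and an input of 0 reads, which makes it at least 4.61-fold higher than an input of 3 reads. The Casp8 call held in 6 of 12 alternatives in MEL cells and in 8 of 12 in ES-EP, and the Xiap call in 5 of 12. All were lost on log2 of scaled reads, where 0 of all 22359 promoters passed above input in either cell type. They were lost as well without either ES-EP input library, as was the call of every other promoter. These losses are thus not particular to Casp8 or Xiap. The Casp8 call in ES-EP was also lost without ES-EP preparation A (log2 2.17). Without MEL preparation B, which leaves 1 MEL preparation, the MEL calls of Casp8 and Xiap were lost. The Casp8 reads of MEL preparation A were 9.76 times the input, a ratio over 6 MEL input reads. The ES-EP input held 16 reads at Casp8. Next in ChIP reads stood Phlda3, a p53 target, in MEL cells (150 reads, adjusted p = 0.093) and Bnip3l, known for clearing mitochondria from maturing red cells, in ES-EP (193 reads, adjusted p = 0.284). No gene of the list differed between the cell types at an adjusted p below 0.05, and the medians of log2 ChIP over input were 1.33 for MEL cells and 0.47 for ES-EP.

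The input was used to ask whether DNA of the members was lost or gained in MEL cells, Trp53 first. The Trp53 region held 102 MEL input reads and 171 ES-EP input reads, a depth-scaled ratio of 1.04 (exact 95% interval 0.809 to 1.34), which leaves 0.5 outside. The ratio of the whole chromosome 11 was 0.987. In the gene body alone it was 1.00 (0.661 to 1.50), with 40 and 70 reads. Each of the 12 bins of 1 kb over the gene had at least 1 read in both inputs. ChIP reads outside enriched windows gave 0.836 (0.701 to 0.996) over the same region.

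**Figure D3:**
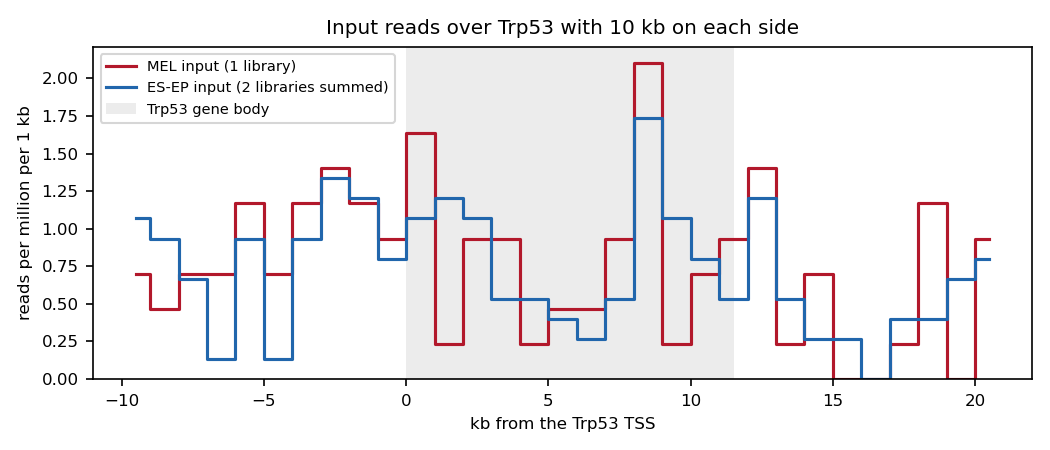
Input RPM in 1 kb bins over Trp53 with 10 kb on each side (gene body shaded), MEL cells with 1 library and ES-EP with 2 libraries summed. Bins without a MEL read number 3 of 31, all beyond the gene, and those without an ES-EP read 1.

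Among the 10 members the input ratio passed 2 at Bcl2 and Mcl1 and was below 0.5 at none, where 5.84% of 20930 gene regions lie outside 0.5 to 2. These ratios come from 1 MEL library, so they carry counting error only and no test over samples. Mcl1 had 200 and 169 reads, a ratio of 2.07 (1.68 to 2.56), on a chromosome whose own ratio was 1.30, and 2.19 (1.85 to 2.60) in ChIP reads outside enriched windows. At Bid the inputs gave 1.69 (1.35 to 2.11) and the ChIP reads outside the windows 1.00 (0.867 to 1.16). The other 7 members lay between 0.893 (Mdm4) and 1.33 (Bak1) in the input.

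**Figure D4:**
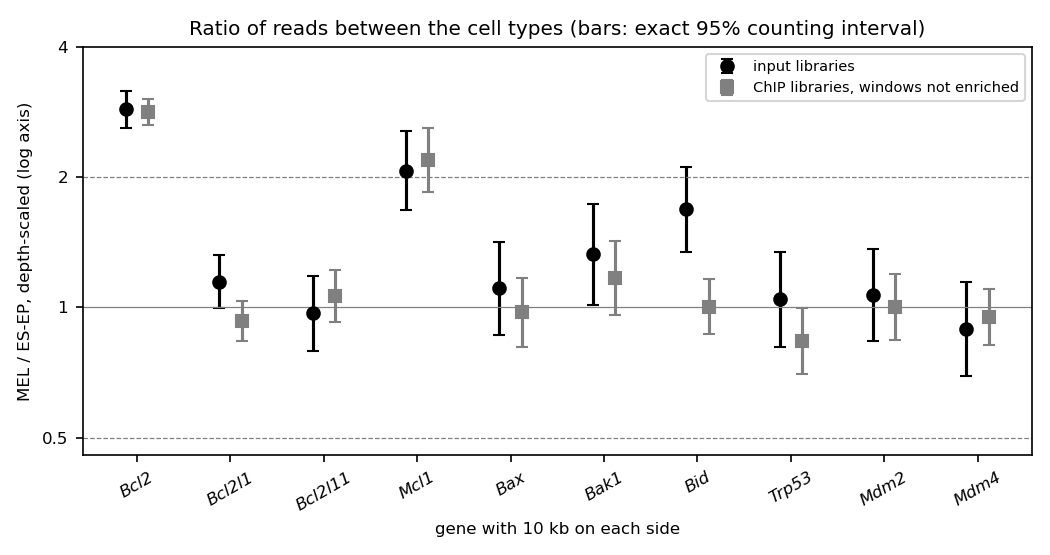
Depth-scaled ratio of MEL cells to ES-EP (log axis) over each member with 10 kb on each side, from input libraries (circles) and from ChIP libraries in windows that were not enriched (squares), with exact 95% counting intervals; dashed lines mark 0.5 and 2. Bcl2 lies at 2.87 and 2.83 and Mcl1 at 2.07 and 2.19, while Trp53 lies at 1.04 and 0.836.

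The higher input ratio reached beyond both genes. In bins of 100 kb within 2 Mb of the TSS it was above 2 in 12 of 40 bins around Bcl2, with a highest value of 3.41, and in 31 of 40 around Mcl1, with a median of 2.61. Around Trp53 1 of 40 bins was above 2 and none below 0.5, and the median was 1.07. At Mcl1 the ChIP ratio of MEL cells to ES-EP, divided by the input ratio of the region, went from 1.32 to 0.639 in the window at the TSS and from 0.678 to 0.327 at -7.9 kb. It went from 1.69 to 0.816 at 0.6 kb. Within the windows themselves the inputs of MEL cells and ES-EP were close at the TSS (3.04 and 3.34 RPM) and at 0.6 kb (3.27 and 3.20). At -7.9 kb they were 2.10 and 0.935. The direction near the TSS thus depends on whether the input of the region or of the window is used. The source of the extra reads was not tested.

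**Figure D5:**
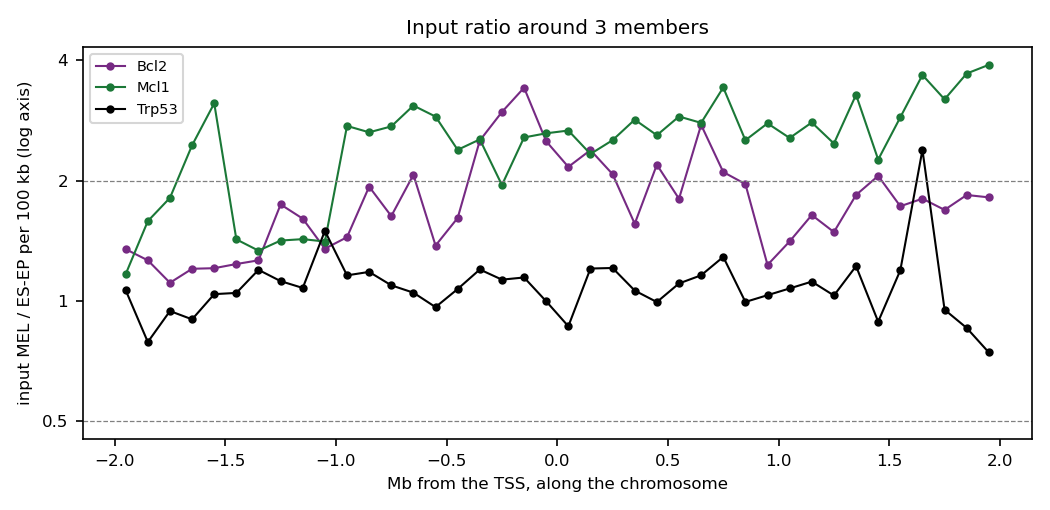
Depth-scaled ratio of MEL to ES-EP input reads (log axis) in 100 kb bins along 2 Mb on each side of the TSS of Bcl2, Mcl1 and Trp53; dashed lines mark 0.5 and 2. Mcl1 stays above 2 in most bins, Bcl2 peaks at 3.41, and Trp53 stays near 1 apart from 1 bin at 2.39.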

How the data were processed

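PU.1 ChIP-Seq and input libraries of MEL cells and ES-EP were analysed (4 ChIP libraries per cell type, 1 and 2 input libraries). Per the labels and the study's methods, the authors sequenced on an Illumina GAII, aligned with ELAND to mm9 and kept unique alignments with up to 2 mismatches. The deposited files list aligned reads by position, with no measured value, and reads of 27 or 28 bases were checked against NCBIM37 (at least 99.95% of 2000 reads per library matched). The 5′ ends were moved by 70 bp (MEL cells) or 65 bp (ES-EP) and all reads were counted with scripts in Python 3.11.15 and scipy 1.17.1.

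Windows of 500 bp over protein-coding genes (GENCODE M1, 10 kb flanks) were tested in each preparation by a one-sided exact Poisson test. Expected reads came from depth-scaled input, taking whichever was highest among the window, its surrounding 5 kb, its surrounding 10 kb and the mean over the 4679974 windows with any read. Benjamini-Hochberg adjustment ran over all 2518297 windows. Cell types were compared with limma 3.58.1 (voom, R 4.3.3, total reads as depth) over windows with at least 20 ChIP reads and over 500 bp on each side of 1 TSS per gene, the one with most coding transcripts starting within 250 bp. Input ratios have exact (Clopper-Pearson) 95% intervals, and intervals and floors cover counting error only, since PCR copies are not independent molecules. Scripts were tested on simulated data.

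For each member the enriched window with most ChIP reads was described, with its sequence where it held a word, and other enriched windows were counted. Of the pathway list, genes that differed and the 2 with most promoter reads per cell type were named. The members and lists were chosen with earlier results of these data known. Alternatives changed one choice at a time. Nothing in the labels states that letters A and B pair preparations across cell types. Reads on unplaced sequence were left out.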

Additional observations from a re-analysis of the deposited data

Results flagged for a closer look

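One value stood apart among 4 libraries of a group. In the Bcl2l1 window at -0.9 kb MEL library B2 had 8.94 RPM, while the next MEL library had 3.41. The gap was 0.920 of the range of the 4 MEL libraries. Such gaps were looked for in 36 groups of 4 libraries (member promoters and described windows in both cell types), and chance flags about 1 in 20. The 4 libraries stem from 2 preparations. No member's ChIP over input differed between the cell types.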

How the results depend on the processing

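Counts of enriched member windows (10 and 10) stayed within 1.5 times under other settings, though single genes lost or gained a window with the grid moved by 250 bp or the 5′ ends not moved (members with a window 7 in place of 8 under each), and with either preparation alone ran from 11 to 23 in MEL cells and from 11 to 16 in ES-EP. Counts over all features moved more. The windows that differed (70) became 965 on log2 of scaled reads plus 0.5, 1036 with median-ratio depth, 781 with libraries as samples, 234 with a minimum of 10 reads, 8 with 40, 1868 with no filter beyond 1 read, and 0 to 13 without 1 preparation. Promoters that differed (0) became 347 with median-ratio depth, 23 with 1000 bp on each side, 160 with libraries as samples and 0 to 1 without 1 preparation. Promoters above input became 0 in both cell types on log2 of scaled reads. In MEL cells (356) they became 156 with median-ratio depth, 635 with 250 bp and 0 to 722 without 1 preparation or input library, and in ES-EP (458) 0 to 677 without one. Promoters whose ChIP over input differs (0) became 24, 8 and 1 on log2 of scaled reads, with median-ratio depth and with 250 bp, and 0 to 8 without 1 library or preparation. Median-ratio depth moved the median log2 ChIP over input from 0.53 to -0.40 in MEL cells and from 0.25 to -0.22 in ES-EP. The cause of these changes was not tested. The Trp53 input ratio ran from 0.931 to 1.19.

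The letters as a replicate block gave 1 window and 4 promoters that differ. They pair nothing in the labels, and the deviations of the A preparations correlate at -0.156 over promoters and 0.0063 over windows. With the letters crossed, a setting added after seeing the data, the replicate block gave 1437 windows, of which 4 of the members, and 1758 promoters.

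Single members changed sign without a call as follows. In MEL cells log2 ChIP over input of Bcl2l1 became 0.80 with 1000 bp and 1.23 with every TSS, and that of Bak1 -0.28 with median-ratio depth, -0.57 with 1000 bp and -0.17 with every TSS. In ES-EP Bak1 ran from -0.052 without input library 1 to 3.29 without input library 2, Trp53 from -1.30 to 1.35 without the same libraries, with 0.048 on log2 of scaled reads and 1.31 with every TSS, and Mdm4 reached -0.15 with median-ratio depth. The difference of ChIP over input at Bcl2l1 became 0.66 with every TSS. Leaving out 1 preparation moved the window difference of Mcl1 between -0.35 and 0.92 (-0.30 without preparation B of ES-EP) and that of Bid between -0.62 and 0.85. Mcl1 in MEL cells passed in 7 of its alternatives, with 250 bp, for example, at log2 2.99 (adjusted p = 0.0269).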
